A study of Mus musculus with 15 samples.

Results

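The comparison described here set all 10 libraries from mice with an intracerebral haemorrhage, a bleed into the brain tissue, as 1 group against 5 libraries from mice with a sham operation, out of 15 libraries in all. Small RNA was sequenced from the operated side's basal ganglia at day 14 to count microRNAs (miRNAs), in mice that the labels give as wild type, with 1 library for each labelled replicate. The sham mice and 5 of the haemorrhage mice (ICH) had been gavaged with distilled water, and the other 5 haemorrhage mice (BYHWD) with Buyang Huanwu decoction, a herbal mixture of traditional Chinese medicine, of which they got 6.19 g/kg once a day for 14 days. The pooled group thus shared the haemorrhage and mixed treated with untreated animals, and no sham mouse received the decoction. Age, sex and strain of the mice are not given in the sources used here, and because the extraction text names an exosome pellet, the RNA may be that of vesicles or of tissue.

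A miRNA is cut from a hairpin precursor that can release an RNA from each of its arms, named 5p and 3p, and it lowers the output of messenger RNAs that pair with its seed, the bases near its 5′ end. Brain tissue is dominated by miRNAs of neural cells, such as miR-9, while blood-derived leukocytes carry a distinct set led by miR-142, miR-223 and, once macrophages are activated, miR-155 and miR-147. After a bleed, blood cells enter, resident microglia are activated, and a fibrous scar forms in which miR-199 and miR-214, known from mesenchymal cells, may be found. The brain label was checked against miR-9-5p, the most abundant miRNA, which had a mean of 101894 ± 8162 CPM (counts scaled to depth; SD, n = 5) in sham and 102165 ± 11687 (SD, n = 10) in the haemorrhage libraries. In bulk RNA fewer cells of a type and less RNA per cell cannot be told apart.

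Total counts ran from 4684611 to 9860236 per library with 1 row kept for each name (6828238 to 14574208 over all deposited rows), and 674 to 682 miRNAs had a read in each. Sham 4 and sham 5 stood apart from the other 13 libraries: miR-101a-3p made up 9.17% and 6.42% of their counts and at most 1.97% elsewhere, and 80 of the 652 tested miRNAs were higher in both of them than in any other library. Results that rest on them are therefore given with and without them.

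Of 652 tested miRNAs, 26 (3.99%) were called higher and 36 (5.52%) lower in the 10 haemorrhage libraries at an edgeR adjusted p under 0.05, in all 62 (9.51%). The same sham libraries gave 5 higher calls (0.767%) and 0 lower calls against ICH alone, and 13 (1.99%) and 2 (0.307%) against BYHWD alone. Of the 26 higher calls, 13 were made in neither single-group comparison, and of the 36 lower calls 34 were not. The median standard error over all tested miRNAs was 0.183 on the log2 scale in the pooled fit, against 0.209 for ICH and 0.210 for BYHWD. The higher calls had a median log2 fold change of 1.00 and the lower calls one of -0.73, beside -0.01 over all tested miRNAs, of which 49.23% were above 0. Against sham 1 to 3 alone, 12 of 660 tested miRNAs (1.82%) were higher and 2 (0.303%) lower. Without sham 4 alone the counts were 9 higher and 3 lower, and without sham 5 alone 16 and 4.

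The mature sequences of the miRNAs on which the comparison turns, from RefSeq (GRCm38.p6), are given from 5′ to 3′ with the seed (bases 2 to 8) in capitals. The first 7 belong to miRNAs called higher. The last 5 belong to miRNAs called lower, and miR-10b-5p, which was not called, stands beside miR-10a-5p to show that they have the same seed. RefSeq held a sequence for 553 of the 652 tested miRNAs and for 55 of the 62 called.
miR-155-5p: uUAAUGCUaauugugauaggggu
miR-142a-3p: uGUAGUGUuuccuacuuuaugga
miR-223-3p: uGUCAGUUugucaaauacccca
miR-21a-5p: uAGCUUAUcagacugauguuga
miR-199a-3p: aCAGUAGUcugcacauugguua
miR-374b-5p: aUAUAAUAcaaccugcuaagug
miR-10a-5p: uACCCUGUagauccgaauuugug
miR-10b-5p: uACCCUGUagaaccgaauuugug
miR-101a-3p: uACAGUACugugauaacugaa
miR-101c: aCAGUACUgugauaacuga
miR-101b-3p: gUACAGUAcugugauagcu
miR-30a-5p: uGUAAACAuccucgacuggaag
miR-379-5p: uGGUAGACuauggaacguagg

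Several miRNAs of leukocytes and activated macrophages were higher. A list of 9 such miRNAs was, like the lists below, chosen with earlier results of these data known. Of its 8 tested members 5, including both arms of miR-142a, were called higher, beside 3.99% of all tested miRNAs. None was called lower. Without sham 4 and sham 5, 4 were called higher, beside 1.82% of all tested. The median log2 fold change was 1.53 with all 15 libraries and 1.43 without sham 4 and sham 5. For miR-155-5p, which is induced in activated macrophages and microglia, the 5 sham libraries had 12.7, 13.5, 13.3, 14.7 and 23.9 CPM, and the 10 haemorrhage libraries ranged from 35.6 to 87.9 CPM with a median of 54.9. Every haemorrhage library lay above every sham library. Here and below a log2 fold change is followed by ± its SE. The pooled mean was 3.77 times that of sham (log2 fold change 1.91 ± 0.22, edgeR adjusted p = 5.22e-05; exact permutation p = 0.000333, the smallest that the exact test allows). Leaving out sham 4 and sham 5, it was 2.14 (edgeR adjusted p = 9.19e-05).

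miR-147-3p, a miRNA induced by Toll-like receptor signalling in macrophages, was rare. It had 0.557, 0.501, 0.300, 0.194 and 0.646 CPM in sham, 15 reads over 5 libraries, and 1.76 to 5.39 CPM with a median of 3.85 in haemorrhage, 295 reads over 10. The groups again did not overlap (log2 fold change 3.07 ± 0.37, edgeR adjusted p = 5.54e-05). Its other arm, miR-147-5p, was called as well (log2 fold change 1.5 ± 0.42, edgeR adjusted p = 0.0379), from 23 and 150 reads, but did not pass without sham 4 and sham 5 (log2 fold change 1.54, edgeR adjusted p = 0.121).

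Both arms of miR-142a, made in cells of the blood lineage, were higher. The 3p arm had 19.8, 24.3, 12.8, 12.2 and 19.6 CPM in sham and 29.3 to 85.3 CPM with a median of 54.4 in haemorrhage, with no overlap (log2 fold change 1.64 ± 0.26, edgeR adjusted p = 0.00124). The 5p arm, the more abundant, had 82.6, 99.6, 80.7, 133 and 191 CPM in sham and 122 to 382 CPM with a median of 257 in haemorrhage (log2 fold change 1.06 ± 0.27, edgeR adjusted p = 0.0270). Here sham 4 and sham 5 were the 2 highest sham libraries and overlapped the haemorrhage range, and without them the log2 fold change was 1.47 (edgeR adjusted p = 0.0143).

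miR-223-3p, which is most abundant in neutrophils and monocytes, was called only in the pooled comparison among the 3 comparisons with sham. It had 3.76, 4.00, 3.90, 1.36 and 3.23 CPM in sham and 2.72 to 22.2 CPM with a median of 7.87 in haemorrhage. The haemorrhage libraries spread over 8-fold and overlapped sham (log2 fold change 1.64 ± 0.43, edgeR adjusted p = 0.0319). When sham 4 and sham 5 were left out the value was 1.40 with an edgeR adjusted p of 0.168, so the call was lost. The list's other tested members were not called: miR-223-5p had a log2 fold change of 1.43 ± 0.58, miR-150-5p of lymphocytes 0.06 ± 0.14, and miR-342-3p, which brain tissue also expresses, 0.22 ± 0.12. The summed level of the list was 980.0 to 1080.1 CPM in sham and 1038 to 1806 in haemorrhage.

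miRNAs controlled by NF-kB or raised in injured tissue gave a mixed picture. Of 10 in the list, 4 were called higher, beside 3.99% of all tested miRNAs, and none lower. Of these 4, miR-155-5p and miR-147-3p were already counted in the leukocyte list, and the other 2 are the arms of miR-21a. In the list 5 log2 fold changes were above 0 and 5 below, and the median was 0.28 (0.71 without sham 4 and sham 5). Both arms of miR-21a, a miRNA raised in reactive astrocytes and fibrosis, were called. miR-21a-5p had 15736, 15223, 9686, 15255 and 15928 CPM in sham and 17799 to 40253 CPM with a median of 23403 in haemorrhage. All haemorrhage libraries lay above all sham libraries, and in sham 3 the level stood well below the other sham libraries (log2 fold change 0.82 ± 0.19, edgeR adjusted p = 0.0220). The rare 3p arm, with 41 reads in sham and 198 in haemorrhage, did not overlap either (log2 fold change 1.11 ± 0.23, edgeR adjusted p = 0.0112). miR-21a-5p had a log2 fold change of 0.90 without sham 4 and sham 5 and missed the threshold (edgeR adjusted p = 0.0568).

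For miR-146a-5p, which feeds back on NF-kB signalling, the call depended on sham 4 and sham 5. The sham libraries had 1372, 1941, 1633, 3824 and 5382 CPM and the haemorrhage libraries 2662 to 6243 CPM with a median of 4369. Sham 4 and sham 5 sat inside the haemorrhage range, while sham 1 to 3 lay below all 10 haemorrhage libraries. With all 15 libraries it was not called (log2 fold change 0.63 ± 0.28, edgeR adjusted p = 0.173), and without sham 4 and sham 5 it was 1.40 (edgeR adjusted p = 0.000927). The paralog miR-146b-5p, at 1534, 1624, 1903, 5322 and 5352 CPM in sham and 1873 to 2979 CPM with a median of 2480 in haemorrhage, was not called in either form, with log2 fold changes of -0.38 and 0.51. The other members of the list that were not called were miR-132-3p (-0.17 ± 0.16), miR-210-3p of the hypoxia response (-0.10 ± 0.13), miR-221-3p (-0.08 ± 0.12) and miR-222-3p (-0.11 ± 0.11).

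**Figure D1:**
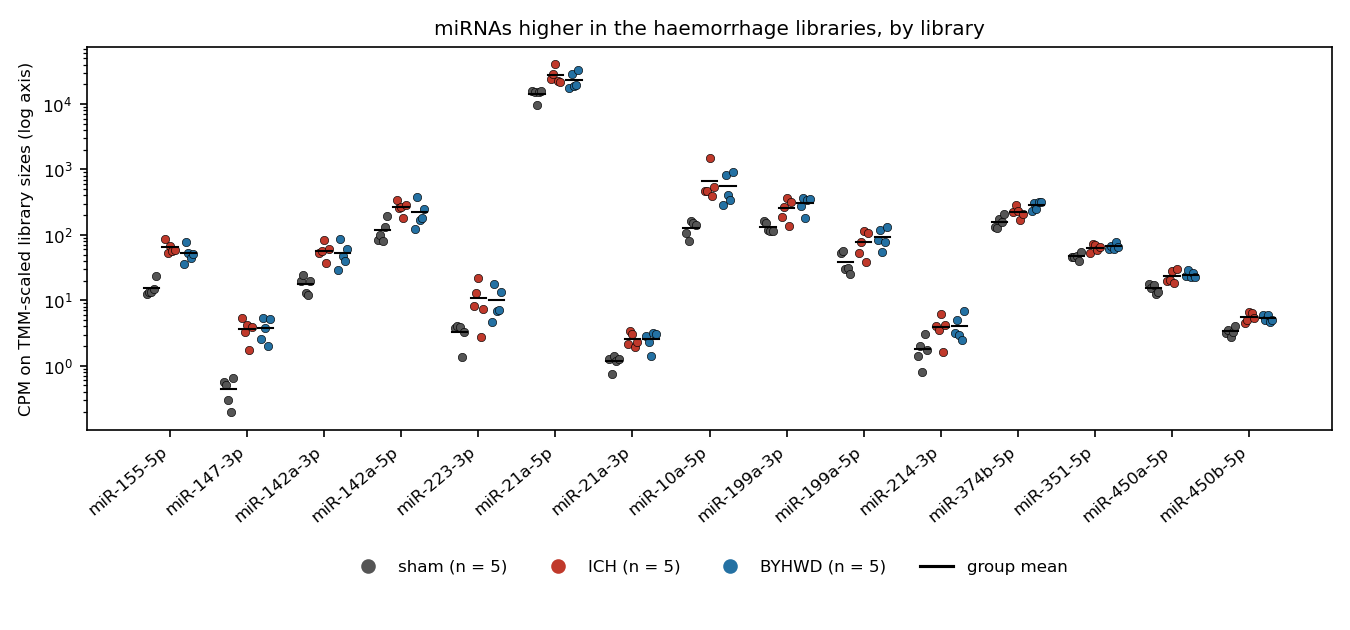
Level of 15 miRNAs called higher in the pooled comparison, in CPM on a log axis; each point is 1 library, in the groups sham, ICH and BYHWD (n = 5 each), and black bars are group means. All ICH and BYHWD points lie above sham for miR-155-5p, miR-147-3p, miR-142a-3p, miR-21a-5p, miR-21a-3p, miR-10a-5p, miR-450a-5p and miR-450b-5p. They overlap sham for miR-142a-5p, miR-223-3p, miR-199a-3p, miR-199a-5p, miR-214-3p, miR-374b-5p and miR-351-5p.

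Among miRNAs of the Hox clusters, the gene arrays that set position along the body axis, miR-10a rose and miR-10b was not called. miR-10a-5p had 105, 79.5, 164, 150.1 and 140.1 CPM in sham and 282 to 1513 CPM with a median of 469.9 in haemorrhage. The groups did not overlap, and the highest haemorrhage library held over 5 times the level of the lowest (log2 fold change 2.27 ± 0.39, edgeR adjusted p = 0.00344; 2.40 without sham 4 and sham 5). Its 3p arm, with 10 reads in sham and 186 in haemorrhage, rose as well (log2 fold change 2.99 ± 0.57, edgeR adjusted p = 0.00785). miR-10b-5p has the same seed and length and differs by the substitution U12A, counted from the 5′ end with the miR-10a-5p base first. It had 63.1, 47.9, 106, 141 and 64.1 CPM in sham and 66.5 to 148 CPM with a median of 84.8 in haemorrhage, ranges that overlapped (log2 fold change 0.11 ± 0.23, edgeR adjusted p = 0.819).

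All 5 tested miRNAs of the mesenchymal list were called higher, beside 3.99% of all tested miRNAs, with a median log2 fold change of 1.08. None was called without sham 4 and sham 5, when the median was 0.95. miR-199a-3p and miR-199b-3p are the same 22-base sequence and share their reads. They had 164, 149.7, 119.5, 116 and 115 CPM in sham and 135 to 369 CPM with a median of 298 in haemorrhage (log2 fold change 1.08 ± 0.22, edgeR adjusted p = 0.0112). The lowest haemorrhage value fell within the sham range, and without sham 4 and sham 5 the value was 0.95 (edgeR adjusted p = 0.0812). miR-199a-5p had 52.7, 56.4, 30.0, 31.4 and 25.0 CPM in sham and 38.6 to 131 CPM with a median of 81.2 in haemorrhage (log2 fold change 1.13 ± 0.29, edgeR adjusted p = 0.0276), and miR-199b-5p followed with log2 fold change 0.93 ± 0.24, edgeR adjusted p = 0.0276. miR-214-3p, at 1.39, 2.00, 0.800, 3.10 and 1.72 CPM in sham and 1.60 to 6.89 CPM with a median of 3.79 in haemorrhage, was the rarest of the group (log2 fold change 1.20 ± 0.34, edgeR adjusted p = 0.0407).

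The hairpins of miR-199a-2 (chr1:162217814-162217923, plus strand, GRCm38.p6) and miR-214 (chr1:162223368-162223477) lie in exons of the noncoding RNA gene Dnm3os. A second miR-199a hairpin lies at chr9:21496495-21496564 (minus strand), within Dnm2 but on the opposite strand, and miR-199b at chr2:32318460-32318569 (plus strand), opposite to Dnm1. The mature 199a sequence is the same from both of its hairpins, so the counts do not show which was transcribed. For the list as a whole the summed level was 269.8 to 405.0 CPM in sham and 328 to 917 in haemorrhage.

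On the X chromosome, 3 of 8 tested miRNAs of the miR-322 to miR-450 cluster, known for restraining the cell cycle, were called higher. The share over all tested miRNAs was 3.99%. miR-450a-5p had 17.7, 15.5, 17.3, 12.6 and 13.3 CPM in sham and 18.4 to 29.7 CPM with a median of 23.0 in haemorrhage (log2 fold change 0.64 ± 0.14, edgeR adjusted p = 0.0167). miR-450b-5p had 3.21, 3.50, 2.80, 3.30 and 4.09 CPM in sham and 4.43 to 6.67 CPM with a median of 5.20 in haemorrhage (log2 fold change 0.70 ± 0.15, edgeR adjusted p = 0.0112). Neither overlapped between groups. miR-351-5p, which has the seed of miR-125a and miR-125b, had 45.2, 45.6, 48.4, 40.5 and 55.3 CPM in sham and 52.8 to 76.6 CPM with a median of 65.3 in haemorrhage (log2 fold change 0.47 ± 0.11, edgeR adjusted p = 0.0228), while miR-125a-5p (0.21 ± 0.18) and miR-125b-5p (-0.28 ± 0.12) were not called. The cluster's miR-542-3p was not called, at -1.12 ± 0.41 with all libraries and 0.39 without sham 4 and sham 5, which held 298 and 234 CPM of it against 37.6 to 55.2 in sham 1 to 3. Without those libraries miR-450b-5p was the 1 member still called (0.77, edgeR adjusted p = 0.0315), while miR-450a-5p (0.50, edgeR adjusted p = 0.130) and miR-351-5p (0.48, edgeR adjusted p = 0.0582) were not. The cluster's median went from 0.31, with 6 of 8 above 0, to 0.38, with 8 of 8. Its summed level had a mean of 352.68 CPM in sham and 314.51 in haemorrhage. The sums ranged from 224.95 to 557.04 CPM in sham (224.95 to 254.26 in sham 1 to 3) and from 264.05 to 394.5 in haemorrhage.

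miR-374b-5p and miR-374c-5p also lie on the X chromosome, miR-374b within an intron of Ftx, a noncoding RNA gene of the X-inactivation centre (chrX:103573060-103573154, minus strand). The 20 bases of miR-374c-5p make up bases 3 to 22 of miR-374b-5p, and both names carry nearly the same reads. The sham libraries had 132, 129, 173, 159 and 206 CPM of miR-374b-5p and the haemorrhage libraries 169 to 323 CPM with a median of 239.04 (log2 fold change 0.67 ± 0.16, edgeR adjusted p = 0.0241). Sham 3 and sham 5 overlapped the haemorrhage range. The value against sham 1 to 3 was 0.81 (edgeR adjusted p = 0.0315).

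Of the remaining higher calls, miR-92b-3p, of the miR-25 and miR-92 seed family, had 597, 646, 686, 487 and 708 CPM in sham and 735 to 889 CPM with a median of 822 in haemorrhage, a rise of 1.3-fold without overlap (log2 fold change 0.38 ± 0.09, edgeR adjusted p = 0.0264). Its 4 seed relatives with a RefSeq sequence had log2 fold changes of 0.27 (miR-25-3p), 0.33 (miR-92a-3p), 0.41 (miR-32-5p) and 0.37 (miR-363-3p), and none was called. miR-98-5p, a let-7 relative with the seed GAGGUAG, was the smallest higher call (log2 fold change 0.29 ± 0.09, edgeR adjusted p = 0.0488). All 10 tested members of the let-7 family were above 0, from 0.01 for let-7c-5p to 0.31 for let-7i-5p, and the other 9 were not called; with RLE scaling or DESeq2, 9 of the 10 were above 0. The other higher calls were miR-152-5p (0.82 ± 0.24; 0.91 against sham 1 to 3, edgeR adjusted p = 0.0993), miR-15b-3p (0.64 ± 0.19), miR-32-3p (0.60 ± 0.17) and miR-1982-3p (0.62 ± 0.19).

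Over all tested miRNAs, 13 (1.99%) had every haemorrhage library above every sham library, and 1 (0.153%) had every haemorrhage library below. Of the 13, 11 were among the 26 called higher, and miR-574-5p (0.55 ± 0.17) and miR-338-3p of oligodendrocytes (0.41 ± 0.14) were not called. Those still called higher without sham 4 and sham 5 were 9 of the 26, namely miR-155-5p, miR-142a-3p, miR-142a-5p, miR-147-3p, miR-10a-5p, miR-10a-3p, miR-450b-5p, miR-374b-5p and miR-374c-5p. All 26 kept a log2 fold change above 0. Against sham 1 to 3 alone, 24 (3.68%) lay wholly above and 4 (0.613%) wholly below.

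Inside the pooled group, BYHWD against ICH gave 0 calls in either direction (edgeR, 31 of 652 at an unadjusted p under 0.05, lowest adjusted p 0.916). This contrast uses no sham level. For miR-155-5p the ICH libraries gave a log2 fold change against sham of 2.06 and the BYHWD libraries 1.75, and the interval of their difference (2 SE either way) was -0.75 to 0.12. For miR-142a-3p the values were 1.70 and 1.57 with an interval of -0.68 to 0.42, and for miR-10a-5p 2.41 and 2.13 with -1.08 to 0.53. The direction of the last rests on 1 library: BYHWD minus ICH was -0.28 for miR-10a-5p and 0.25 without ICH 3. These intervals include 0 and also include differences of 1.5-fold or more. They therefore do not show that the libraries of treated and untreated mice had the same level.

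Further values against the shared sham libraries were as follows. miR-199a-3p had 0.93 in ICH (edgeR adjusted p = 0.0687) and 1.21 in BYHWD (edgeR adjusted p = 0.0117), with an interval of the difference of -0.21 to 0.76. For miR-374b-5p they were 0.48 and 0.84 with an interval of 0.02 to 0.69, which does not include 0, although the edgeR adjusted p over all tested miRNAs was 0.916. miR-21a-5p had 0.93 and 0.71 with -0.65 to 0.20. Among the 26 higher calls the median absolute difference between BYHWD and ICH was 0.12 and the highest 0.38, beside a median of 0.15 over all tested miRNAs.

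**Figure D2:**
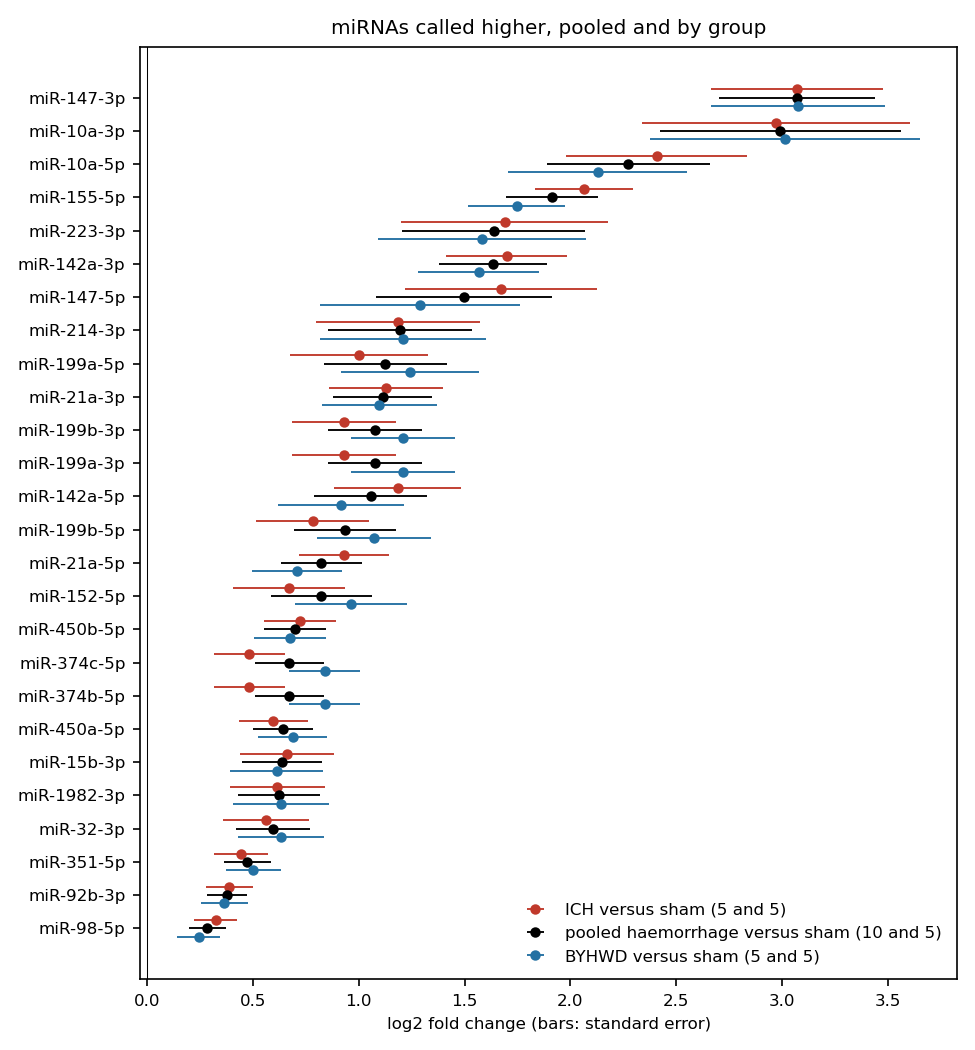
Log2 fold change against sham of the 26 miRNAs called higher, for the pooled group (black), ICH (red) and BYHWD (blue), with standard errors as bars; all 3 share the 5 sham libraries. The pooled points run from 0.29 for miR-98-5p to 3.07 for miR-147-3p, and the ICH and BYHWD points lie on either side of them.

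The lower calls rested largely on sham 4 and sham 5. In 26 of the 36, both of these libraries were above all other 13, which was so for 0 of the 26 higher calls and 80 of 652 miRNAs in all. The median level in sham 4 and sham 5 was 1.71 times that in sham 1 to 3 for the lower calls, 1.04 times for the higher calls and 0.939 times over all tested miRNAs. Without them the median log2 fold change of the 36 went from -0.73 to -0.28, and 2 were still called.

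miR-101a-3p and miR-30a-5p were the most abundant of them. miR-101a-3p, a brain-expressed regulator of the Polycomb enzyme Ezh2, had 14938, 13674, 15746, 137472 and 88982 CPM in sham and 12032 to 20621 CPM with a median of 16808 in haemorrhage (log2 fold change -1.72 ± 0.43, edgeR adjusted p = 0.0270; exact permutation p = 0.0749). The fall rested on sham 4 and sham 5: sham 1 to 3 lay within the haemorrhage range, and without the other 2 the value was 0.14 (edgeR adjusted p = 0.654). miR-101c is contained whole in miR-101a-3p and carries nearly the same reads. miR-101b-3p, from another hairpin (chr19:29135279-29135375, in an intron of Rcl1), shares a run of 15 bases with miR-101a-3p. It had 7410, 8429, 7339, 32218 and 23504 CPM in sham and 6075 to 9878 CPM with a median of 8305 in haemorrhage (log2 fold change -0.99 ± 0.29, edgeR adjusted p = 0.0448), and 0.03 without sham 4 and sham 5.

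miR-30a-5p, of a family abundant in many tissues, had 38083, 47897, 38166, 168687 and 172939 CPM in sham and 30690 to 60603 CPM with a median of 41443 in haemorrhage (log2 fold change -1.15 ± 0.33, edgeR adjusted p = 0.0410; exact permutation p = 0.0480). miR-30e-5p, which has the same seed and differs by the substitution C13U, had 5264, 4790, 4548, 31924 and 24527 CPM in sham and 4317 to 5965 CPM with a median of 4679 in haemorrhage (log2 fold change -1.51 ± 0.38, edgeR adjusted p = 0.0270; exact permutation p = 0.0529). In both, the haemorrhage libraries spanned sham 1 to 3, and without sham 4 and sham 5 the log2 fold changes were 0.01 and 0.02. Among the seed relatives with a RefSeq sequence, miR-30c-5p (-0.30 ± 0.16) and miR-384-5p (-0.09 ± 0.11) were not called. Of 11 tested members of the miR-30 list 2 were called lower, beside 5.52% of all tested miRNAs.

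Other lower calls also shrank without these 2 libraries. miR-335-5p, made from an intron of the imprinted gene Mest, had 421, 378, 418, 1557 and 1100 CPM in sham and 269 to 462 CPM with a median of 345 in haemorrhage (log2 fold change -1.13 ± 0.28, edgeR adjusted p = 0.0265; -0.21 without sham 4 and sham 5). miR-31-5p had 136, 128, 114, 352 and 299.5 CPM in sham and 59.8 to 153 CPM with a median of 91.2 in haemorrhage (log2 fold change -1.10 ± 0.26, edgeR adjusted p = 0.0241; -0.41 without). miR-185-5p had 1968, 1670, 1752, 4393 and 4241 CPM in sham and 1251 to 1818 CPM with a median of 1466 in haemorrhage (log2 fold change -0.90 ± 0.20, edgeR adjusted p = 0.0176; -0.27 without). For these 3 the median of the haemorrhage libraries lay below sham 1 to 3, and the ranges overlapped. miR-3083-5p (-1.09 ± 0.29; -0.40 without), miR-877-5p (-0.73 ± 0.22; -0.28 without), miR-330-3p (-0.46 ± 0.13; -0.20 without) and miR-344d-3p (-0.70 ± 0.19; -0.24 without) were also nearer 0 without them. miR-128-1-5p (-0.61 ± 0.18; -0.63 without), miR-193b-5p (-0.88 ± 0.26; -0.84 without) and miR-5621-3p (-0.75 ± 0.22; -0.88 without) kept values of about the same size without being called, and miR-3099-3p (-0.62 ± 0.16; -0.44 without) and miR-9b-3p (-1.33 ± 0.33; -0.65 without) lay between.

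**Figure D3:**
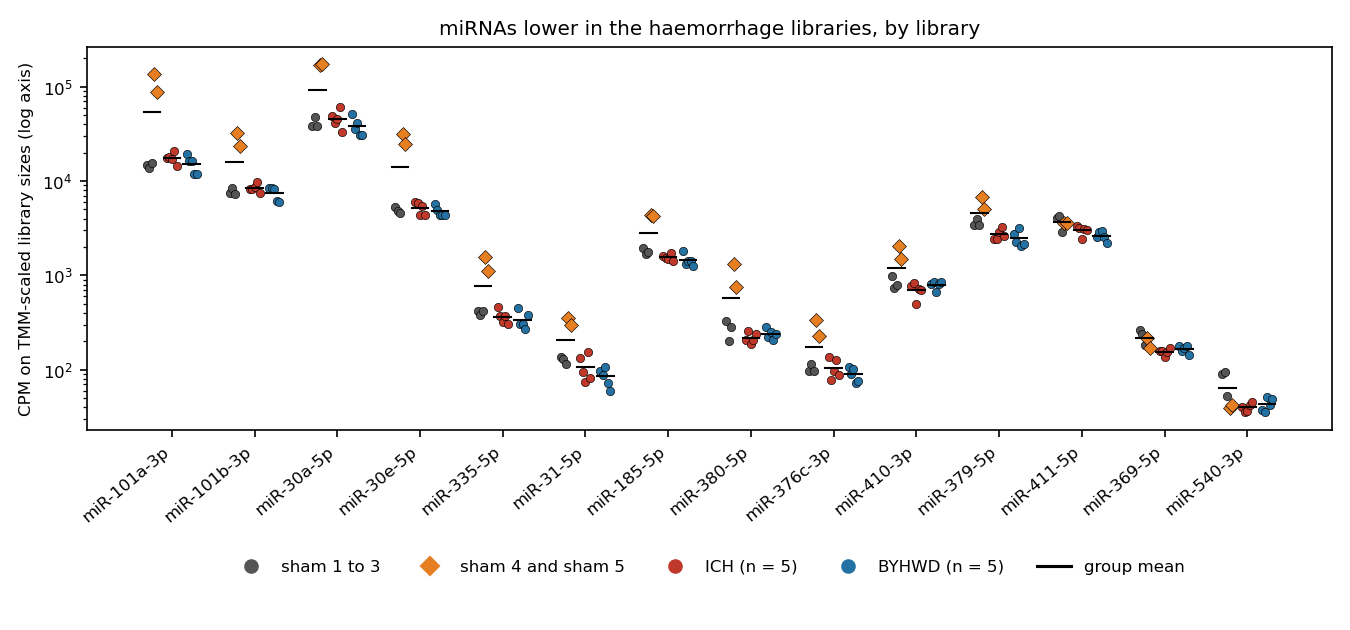
Level of 14 miRNAs called lower in the pooled comparison, in CPM on a log axis; each point is 1 library, orange diamonds are sham 4 and sham 5, and black bars are group means over all 5 libraries of a group. The diamonds stand above all other points for miR-101a-3p, miR-30a-5p and 9 more, while for miR-411-5p, miR-369-5p and miR-540-3p they do not.

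A part of the lower calls came from the imprinted Dlk1-Dio3 region of chromosome 12, whose maternal copy expresses a large array of miRNAs found in neurons. By the list of its miRNAs, 15 of 72 tested were called lower and 0 higher, with 54 log2 fold changes below 0 and a median of -0.17. By hairpin coordinates (chr12:109563710-109747928, GRCm38.p6) 13 of 87 tested (14.9%) were lower, beside 5.52% of all tested miRNAs. Only 553 of the 652 tested miRNAs matched a name with a position, while the 5.52% is over all 652. miR-376c-3p and miR-487b-3p, called lower in the list, had no position and are not among the 13. Without sham 4 and sham 5 the list's median was -0.20, 2 were called, and 60 of the 72 lay below 0.

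miR-379-5p, the first hairpin of the region's large distal array (chr12:109709060-109709125), was the 1 miRNA of 652 with every haemorrhage library below every sham library. It had 3444, 4011, 3403, 6752 and 5077 CPM in sham and 2063 to 3240 CPM with a median of 2545 in haemorrhage, where the pooled mean was 1.74 times lower (log2 fold change -0.80 ± 0.16, edgeR adjusted p = 0.00789; exact permutation p = 0.000333). Without sham 4 and sham 5 the log2 fold change was -0.49 and missed the threshold (edgeR adjusted p = 0.0582). Its 3p arm was called too, at 161, 197, 138, 185 and 196 CPM in sham and 105 to 149 CPM with a median of 135 in haemorrhage (log2 fold change -0.42 ± 0.12, edgeR adjusted p = 0.0404). miR-411-5p, an adjacent miRNA of the array, had 4060, 4225, 2901, 3615 and 3621 CPM in sham and 2193 to 3329 CPM with a median of 2929 in haemorrhage (log2 fold change -0.39 ± 0.11, edgeR adjusted p = 0.0416), with sham 4 and sham 5 between the other sham libraries.

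Both miRNAs that were still called lower without sham 4 and sham 5 belong to this region. miR-369-5p had 262, 241, 182, 215.02 and 171 CPM in sham and 135 to 179 CPM with a median of 156 in haemorrhage (log2 fold change -0.42 ± 0.11, edgeR adjusted p = 0.0347; -0.52 without them, edgeR adjusted p = 0.0315). miR-540-3p had 89.8, 94.4, 52.7, 38.8 and 41.7 CPM in sham and 35.2 to 51.1 CPM with a median of 41.4 in haemorrhage (log2 fold change -0.62 ± 0.19, edgeR adjusted p = 0.0488; -0.94 without, edgeR adjusted p = 0.00317). For miR-540-3p sham 4 and sham 5 lay inside the haemorrhage range and sham 1 to 3 above it, the reverse of the miR-101 picture.

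For others of the region the fall shrank. miR-380-5p had 326, 202, 285, 1334 and 753 CPM in sham and 188 to 282 CPM with a median of 229 in haemorrhage (log2 fold change -1.34 ± 0.31, edgeR adjusted p = 0.0228; -0.26 without sham 4 and sham 5). miR-376c-3p went from -0.84 to -0.10, miR-376a-3p from -0.85 to -0.16, miR-410-3p from -0.69 to -0.17 and miR-494-3p from -0.73 to -0.10. The other lower calls of the list were miR-376b-3p, miR-412-5p, miR-487b-3p, miR-493-3p and miR-665-3p, with log2 fold changes from -0.72 to -0.36. The region's most abundant miRNA, miR-127-3p, was not called (-0.02 ± 0.12), and neither was miR-381-3p (0.18 ± 0.15).

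Of 18 miRNAs enriched in neurons or brain, 4 were called lower, beside 5.52% of all tested miRNAs, and none higher. In the list 16 were below 0, with a median log2 fold change of -0.11 (-0.17 without sham 4 and sham 5, when 0 were called). The 4 called lower were miR-9-3p (-0.51 ± 0.15, and -0.16 without), miR-124-5p (-0.60 ± 0.15, and -0.32 without), miR-383-5p (-0.49 ± 0.15, and -0.20 without) and miR-137-3p (-0.37 ± 0.11, and -0.33 without). For miR-9-3p and miR-124-5p these are the less abundant arms. The abundant arms, miR-9-5p (0.00 ± 0.11) and miR-124-3p (-0.22 ± 0.12), were not called. miR-137-3p had 424, 361, 262, 416 and 349 CPM in sham and 239.28 to 313 CPM with a median of 285 in haemorrhage, with sham 3 alone among the sham libraries inside the haemorrhage range.

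**Figure D4:**
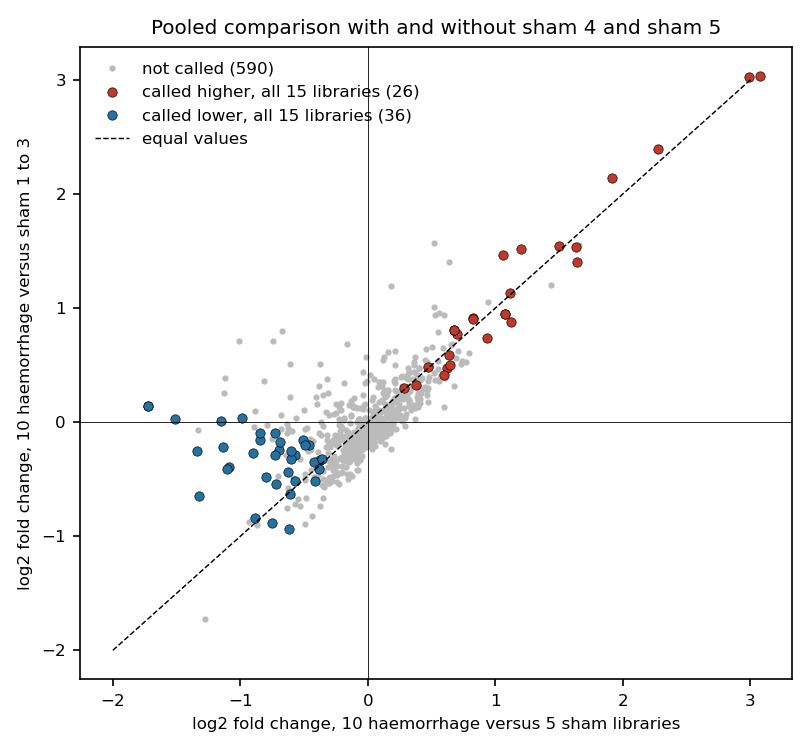
Log2 fold change of each of the 652 tested miRNAs in the pooled comparison with all 5 sham libraries (horizontal) and with sham 1 to 3 alone (vertical); both axes use the same 10 haemorrhage libraries. Points called higher (red, 26) stay near the line of equal values, with medians of 1.00 and 0.91, and points called lower (blue, 36) lie nearer 0 on the vertical axis, with medians of -0.73 and -0.28.

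Hairpins can be followed by both of their arms. Of 26 higher calls, 19 had the other arm tested. In 12 it was called higher too, namely both arms of miR-10a, miR-21a, miR-142a, miR-147, miR-199a and miR-199b. Each of these hairpins counts once for each arm, and miR-199a-3p and miR-199b-3p share their reads. The other arm's median log2 fold change was 1.08, which is set in part by these calls themselves. Of 36 lower calls, 28 had the other arm tested and 2 had it called lower, both of miR-379, and the other arm's median was -0.09 against -0.69 for the called arm. In sham 4 and sham 5 miR-30a-5p stood at 4.13 times its level in sham 1 to 3 and miR-30a-3p at 0.890 times. The same ratios were 5.80 and 0.887 for miR-30e-5p and its 3p arm, 3.27 and 0.812 for miR-335, and 2.58 and 0.559 for miR-31. In haemorrhage against sham, the 3p arms of these hairpins had log2 fold changes of -0.03 (miR-30a-3p), -0.05 (miR-30e-3p), -0.20 (miR-335-3p) and 0.17 (miR-31-3p), none of them called.

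**Figure D5:**
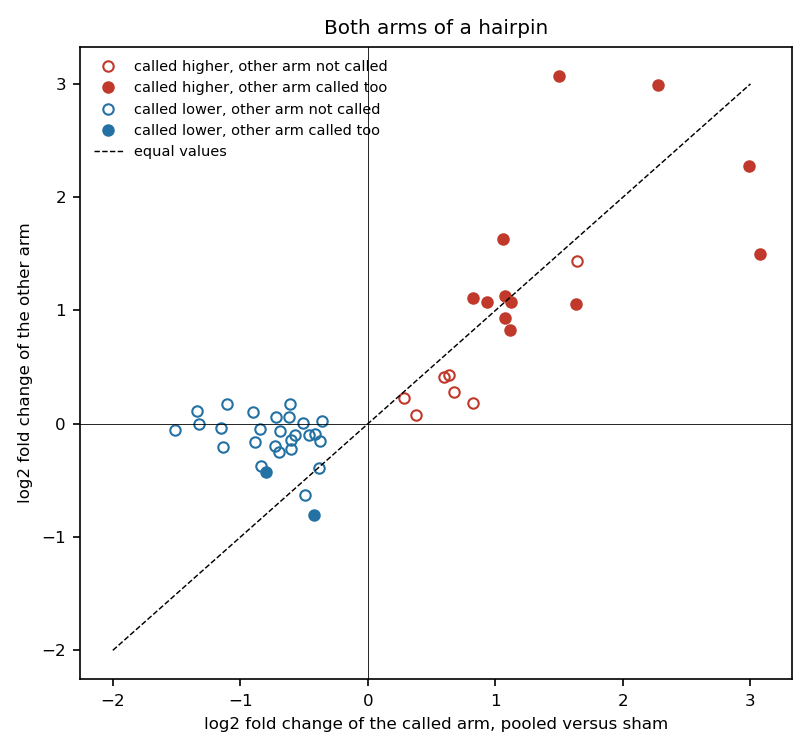
Pooled log2 fold change of the called arm of a hairpin (horizontal) and of its other arm (vertical), for the 19 higher calls and 28 lower calls with both arms tested; a hairpin with both arms called appears once for each arm. Red points with the other arm called too lie on both sides of the line of equal values, and those without it lie below the line. Blue points have a median of -0.09 on the vertical axis, and the lowest, at -0.80, is miR-379-3p with its 5p arm.

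Removing sham 4 and sham 5 added 3 higher calls: miR-146a-5p, described above, miR-152-3p and miR-148b-3p. The last 2 share the seed CAGUGCA and act on DNA methyltransferase genes. miR-152-3p had 249, 278, 458, 1476 and 878 CPM in sham and 618 to 1033 CPM with a median of 673 in haemorrhage, and its log2 fold change went from 0.18 ± 0.32 to 1.19 (edgeR adjusted p = 0.00314). miR-148b-3p had 1296, 1497, 3032, 3285 and 3990 CPM in sham and 2834 to 4670 CPM with a median of 3806 in haemorrhage, and went from 0.52 ± 0.22 to 0.94 (edgeR adjusted p = 0.0315). Sham 1 to 3 were low in miR-152-3p and sham 4 was above every haemorrhage library.

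Lists for other cell types the dissection could hold gave 0 calls in either direction. The erythroid list (7 tested, all below 0, median -0.12) summed to 180.3 to 465 CPM in sham and 176 to 547 in haemorrhage, and its main miRNA, miR-451a, had a log2 fold change of -0.44 ± 0.47. The endothelial and mural list (6 tested, median 0.02, and -0.002 with RLE scaling) included miR-126a-3p at -0.18 ± 0.12 and miR-143-3p at 0.12 ± 0.20. The 4 oligodendrocyte miRNAs had a median of 0.33, with 3 above 0 and 1 below, and miR-338-5p was at 0.25 ± 0.12. Their summed level went the other way, with a mean of 14130 CPM in sham and 10058 in haemorrhage. The sums ranged from 7152.5 to 24226 CPM in sham (7152.5 to 11206 in sham 1 to 3) and from 8967.1 to 11267 in haemorrhage. The 13 miRNAs of choroid plexus and epithelium had a median of 0.47, with 9 above 0 (0.68 and 13 without sham 4 and sham 5), and sums of 2145 to 18641 CPM in sham and 2229 to 17953 in haemorrhage, a spread within each group of over 8-fold. Their highest haemorrhage library, ICH 3, was also the highest for miR-10a-5p, while sham 2, the highest of all for the list, had the lowest miR-10a-5p. The part of these other tissues in the miR-10a result was not tested. Of the remaining lists, those for multiciliated cells (5 tested, median 0.17), the miR-17 family clusters (15 tested, median 0.24) and the miR-29 family (6 tested, median 0.06) also had 0 calls. Their medians without sham 4 and sham 5 were -0.06, 0.24 and -0.03, and those of the erythroid, endothelial and mural, and oligodendrocyte lists were -0.21, 0.09 and 0.22, with 0 calls again.

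The called miRNAs also differed in base composition. The median share of G and C in the mature sequence was 36.9% for the 24 higher calls with a RefSeq sequence, 45.5% for 31 lower calls and 47.8% for all 553, a description with no test. Among the calls with a RefSeq sequence, no seed was shared between a higher and a lower call. miR-410-3p and miR-344d-3p, from chromosomes 12 and 7, share the seed AUAUAAC, and both were called lower, while miR-344e-3p with the same seed was at 0.01.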

How the data were processed

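The authors deposited 1 table of raw read counts per mature miRNA for each of 15 libraries. Per the labels' protocols, NEBNext small RNA libraries were size-selected. Per the submitters' processing notes, cutadapt, Bowtie and edgeR were used, with no versions given, and the build named is hg38 although the samples are mouse. The sources used here do not state how reads matching several hairpins were assigned. In 15 of 15 tables the first count is the library's number, so each count belongs to the name 1 row above: with that move, 216 of 245 adjacent rows of 1 name (88.16%) had counts within 0.1 log2, against 149 (60.82%) as printed. For the 76 of 683 names on more than 1 row only the row of highest total entered. 36 names share reads with another, within 1%.

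Counts were tested with edgeR 4.0.16 (R 4.3.3; TMM, filterByExpr, robust quasi-likelihood F-test, Benjamini-Hochberg over all miRNAs tested, called at 0.05) with the 10 haemorrhage libraries as 1 group; ICH, BYHWD and sham as 3 groups gave the side-by-side values, which share the sham libraries. SE is the log2 fold change divided by the square root of F. CPM are on TMM-scaled library sizes. Exact permutation tests, two-sided and unadjusted, used every assignment of 15 libraries to groups of 10 and 5. On simulated counts of 640 miRNAs, 200 of them changed, 86% of 2-fold and 68.4% of 1.5-fold changes were recovered in the pooled comparison, with 3.92% false calls. For BYHWD against ICH, with 649 simulated miRNAs and 200 changed, 75% of 2-fold and 46% of 1.5-fold changes were recovered, with 3.2% false calls. The simulated libraries varied independently of each other, so none stood apart together as sham 4 and sham 5 did. The rate of false calls in the real data was therefore not tested. Hairpin positions and sequences are from RefSeq and host genes from GENCODE, both on GRCm38.

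The comparison, the lists and the rule for naming miRNAs were chosen with earlier results of these data known. The rule takes the 15 largest changes in each direction among calls of at least 10 CPM and the other arms of these. It also takes the 2 most abundant members of each list and the 5 most abundant miRNAs. Some miRNAs that the rule takes are not given above, such as miR-219a-2-3p, miR-204-5p and miR-322-3p. Every other miRNA named was chosen after its values were seen. The labels do not say that each replicate is a separate mouse, so p-values measure the spread between these samples, which may be partly technical. Replicate numbers did not pair libraries across groups. PCR duplicates could not be removed, since the counts carry no molecular identifiers.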

Additional observations from a re-analysis of the deposited data

Results flagged for a closer look

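In 7 of 144 groups of values tested, 1 library stood farther from the rest of its group than Dixon's test allows at 95%, and about 1 in 20 would do so by chance. In the sham group, sham 5 was high for miR-155-5p, at 23.9 CPM against 12.7 to 14.7 in the other sham libraries, and still below every haemorrhage library. Sham 3 was low for miR-21a-5p, at 9686 CPM against 15223 to 15928, and for miR-29a-3p, at 9630 CPM against 12985 to 13424. Among the 10 haemorrhage libraries, BYHWD 5, the library with the fewest counts, was low for miR-9-5p, at 73907 CPM against 97164 to 115122. BYHWD 2 was high for miR-338-5p of oligodendrocytes, at 1265 CPM against 775 to 956. BYHWD 4 was high for the erythroid miR-451a, at 295 CPM against 34.7 to 108. BYHWD 1 was high for miR-143-3p of mural cells, at 33558 CPM against 17790 to 22621.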

How the results depend on the processing

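Of the 26 higher calls, 5 (miR-155-5p, miR-142a-3p, miR-10a-5p, miR-10a-3p and miR-147-3p) were kept in every alternative with a value, leaving aside the names as printed, and 9 when any 1 library was left out. Of the 36 lower calls none was kept in every alternative, and miR-379-5p alone was kept whichever single library was left out. The main counts were 26 higher and 36 lower. They were 5 and 1 by limma-voom with sample quality weights, 12 and 2 without sham 4 and sham 5, and 23 and 38, 22 and 25, 23 and 32 with RLE scaling, upper quartile scaling and no filter. DESeq2 gave 32 and 54. Over the fits that leave out 1 library the higher calls ranged from 9 to 37 and the lower calls from 3 to 58: both fell most without sham 4 (9 and 3) or sham 5 (16 and 4), and the lower calls rose to 55 without sham 1 and 58 without sham 3. Lower calls were 12, 15 and 12 without ICH 2, ICH 3 and ICH 5, and 10, 16 and 14 without BYHWD 2, BYHWD 4 and BYHWD 5; without BYHWD 2 there were 17 higher calls. BYHWD against ICH had 0 calls in every setting run. Taking the replicate number as a block gave 8 higher and 2 lower calls; the numbers do not pair the libraries, since the median correlation of same-numbered libraries was -0.149 over 15 pairs and 4 of 15 libraries correlated best with their own number.

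Among the 62 called miRNAs, the sign turned without sham 4 and sham 5 for miR-101a-3p (0.14), miR-101c (0.14), miR-101b-3p (0.034), miR-30e-5p (0.024) and miR-30a-5p (0.0089). With the names as printed, each name takes the counts of another row, and some values thereby changed sign. Of names called higher, this was so for miR-155-5p (-0.39), miR-142a-5p (-0.11), miR-152-5p (-0.19), miR-374c-5p (-0.24), miR-450a-5p (-0.22), miR-21a-3p (-0.19), miR-147-5p (-0.020), miR-147-3p (-0.11), miR-1982-3p (-0.053), miR-223-3p (-0.29), miR-15b-3p (-0.64) and miR-32-3p (-1.76). Of names called lower, it was so for miR-101c (0.26), miR-380-5p (0.048), miR-335-5p (1.11), miR-31-5p (0.28), miR-101b-3p (0.034), miR-376c-3p (0.015), miR-379-5p (0.0022), miR-494-3p (0.19), miR-877-5p (0.18), miR-493-3p (0.084), miR-3099-3p (0.010), miR-5621-3p (0.63), miR-376b-3p (0.23), miR-128-1-5p (0.081), miR-410-3p (0.18) and miR-665-3p (0.021). Of names not called, miR-381-3p (-0.95) and miR-185-3p (-0.83) were then called lower and miR-30e-3p (0.68) higher. Depth limits the rare miRNAs: 10 of the 26 higher and 4 of the 36 lower calls averaged under 10 CPM.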
